A study of Mus musculus with 12 samples.

Results

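The heat shock protein and DnaJ genes listed in this RNA-seq dataset, together with *Pdia3*, *Pdia4*, *Pdia6*, *Calr*, *Canx*, *Xbp1* and *Ern1*, were followed through LPS stimulation of peritoneal exudate cells (PECs). The genes were chosen by symbol (Hspa, Hspb, Hspd, Hspe, Hsph, Hsp90, Hsf and Dnaja, Dnajb or Dnajc followed by a number), which gave 71 of the 12850 listed genes. By where their proteins are known to act, 33 were placed in the cytosol and nucleus, 13 in the endoplasmic reticulum (ER) and 8 in mitochondria. The regulators *Hsf1*, *Hsf2*, *Xbp1* and *Ern1* are 4 more, and 13 form a remaining group. That group also holds ER membrane DnaJ genes such as *Dnajb12* and *Dnajb14*, which the ER counts and medians therefore leave out. The PECs came from C57BL/6 mice that were wild type (WT) or carried *Zc3h12a* S513A/S513A (S513A). This knock-in, made by CRISPR/Cas9 in C57BL/6J eggs, puts alanine in place of 1 serine of Regnase-1, an RNase known for destabilizing inflammatory transcripts. The cells were elicited with thioglycollate, an irritant injected into the peritoneal cavity, and cultured in the same medium. LPS, an outer membrane glycolipid of Gram-negative bacteria, was given at 100 ng/ml for 4 or 8 hr, and 0 hr cells got none. No group was kept for 4 or 8 hr without LPS. LPS and time in culture therefore cannot be told apart in any contrast between times. Each of the 6 groups had 2 libraries, 12 in all, and the age of the mice is not given in the sources used here. The labels do not say whether the 2 libraries of a group came from separate mice, so the p values measure only the spread between these libraries.

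Chaperones bind unfolded or newly made proteins and help them fold. In the cytosol, HSP70 proteins work in ATP-driven cycles that DnaJ proteins start and nucleotide exchange factors end, and HSP90 takes over many clients from HSP70. The heat shock factor HSF1 drives many of these genes from heat shock elements (HSE), repeats of the unit GAA and its complement TTC. In the ER, BiP (*Hspa5*), GRP94 (*Hsp90b1*), the lectins calnexin and calreticulin and the protein disulfide isomerases form a separate folding system. Its genes are induced in the unfolded protein response through the sensor IRE1 (*Ern1*) and the factors XBP1 and ATF6, in part through the ER stress response element (ERSE), CCAAT and CCACG spaced by 9 bases.

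The stretches upstream of the gene starts are shown first, because they describe the genes without use of any expression value. The 250 bases before each RefSeq start on GRCm38.p6 were searched on both strands, and 58 of the 71 genes had an entry. The ERSE (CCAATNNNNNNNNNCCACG) was found in 6 of 12 ER genes, in 0 of 28 cytosolic genes and in 16 of the 9952 listed genes with an entry (0.161%). In these lines, written 5′ to 3′ on the strand of the gene, capitals mark the CCAAT and CCACG letters or their reverse complement.
Hspa5, chr2:34772022-34772046, plus strand: tcaCCAATcggaggcctCCACGacg
Hsp90b1, chr10:86705530-86705554, minus strand: gtgCGTGGtgaggcacgATTGGtga
Hsp90b1, chr10:86705635-86705659, minus strand: agcCCAATcgcaaggagCCACGctt
Calr, chr8:84847072-84847096, minus strand: acgCGTGGtcgaccctcATTGGccc
Canx, chr11:50325797-50325821, minus strand: tgaCCAATcaccacgctCCACGaag
Pdia6, chr12:17266488-17266512, plus strand: agaCCAATgaaaggcggCCACGgcg
Dnajc3, chr14:118937824-118937848, plus strand: caaCCAATcagcgccaaCCACGacc

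The HSE of 2 units (GAANNTTC or TTCNNGAA, each its own reverse complement) was found in 9 of 28 cytosolic genes (32.1%), 1 of 12 ER genes (8.33%, *Dnajc10*), 2 of 5 mitochondrial genes (40%, *Hspd1* and *Hspe1*) and 12.6% of the 9952 listed genes. It is therefore a common match, unlike the ERSE. The lines below show the match of the inducible HSP70 genes and of others that the results return to, with the GAA and TTC units in capitals. This is a selection, and the matches of *Dnajb4*, *Dnaja4*, *Dnajc27*, *Hspb6* and *Hspb1* are not shown. In the results below, *Dnaja4*, *Dnajc27* and *Hspb6* were called at neither time and *Hspb1* was not tested. A run of at least 3 units, in either order, was found in *Dnajb6*, *Hspe1* and *Hspd1* among the members and in 0.482% of the listed genes. That of *Hspe1* holds 4 units, a form found in 5 of the 9952 listed genes. It lies inside the annotated span of *Hspd1*, a gene on the opposite strand that overlaps *Hspe1* at its start, and upstream of the RefSeq starts of both, so it was counted for both.
Hspa1a, chr17:34972250-34972263, minus strand: ctgGAAgaTTCctg
Hspa1b, chr17:34959332-34959345, minus strand: ctgGAAgaTTCctg
Hsph1, chr5:149636359-149636372, minus strand: tctTTCtcGAAggc
Dnaja1, chr4:40722341-40722354, plus strand: ctaGAAaaTTCtac
Dnajc10, chr2:80315281-80315294, plus strand: tatTTCtaGAAaac
Dnajb6, chr5:29735849-29735867, plus strand: cgaGAAtcTTCcgGAAcgc
Hspe1, chr1:55088056-55088079, plus strand: ccgTTCtaGAAccTTCcgGAAggc

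The matches of *Hspa1a* and *Hspa1b* have the same letters at the same distance from the start, and 247 of their 250 upstream bases are identical (98.8%). These genes encode nearly identical proteins, so reads may have been shared between them in the counting, and their separate values are uncertain. Entries for *Hspa8*, *Hsp90aa1* and *Hsp90ab1* were not among the 58. A match describes letters in this window only.

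**Figure D1:**
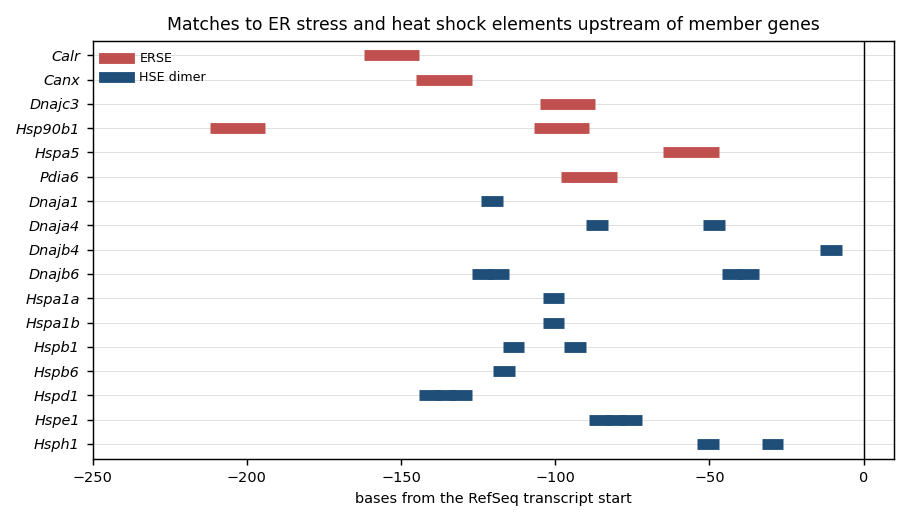
Position of each ERSE (red, 6 ER genes) and 2-unit HSE (blue, 9 cytosolic genes and the mitochondrial *Hspd1* and *Hspe1*) in the 250 bases before the RefSeq start, with the start at 0 on the x axis in bases. The ERSE matches sit in ER genes alone among the members, between 47 and 212 bases before the start, and genes with several starts show a match once for each.

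Depth was 9525979 to 12439960 reads per library on the listed genes, and the members held 1.02 to 1.21% of these reads. The deposited values are log2 CPM, the log2 of reads relative to library size. Each library was scaled by a factor of its own, 1.06 to 1.15 times its reads at 0 hr, 0.88 to 0.97 times at 4 hr and 0.94 to 1.03 times at 8 hr, which bears on every LPS contrast. Macrophage markers (8 of 8 listed) summed to 16754 to 27848 CPM. Markers of neutrophils (1 of 7 listed), T cells (2 of 5), B cells (4 of 5), mast cells (4 of 5) and mesothelial cells (4 of 5) summed to 8.87 CPM or less in each library. Most defining neutrophil markers were not listed. The plasma cell list was at 108 to 133 CPM at 0 hr and 204 to 219 CPM at 8 hr, nearly all of it from *Sdc1*, and the eosinophil marker *Siglecf* at 15.2 to 18.3 CPM at 0 hr and 2.98 to 4.32 CPM at 8 hr. The part of these cells in the results was not tested, and in bulk RNA fewer cells of a type and less RNA per cell cannot be told apart. WT 4 hr replicate 2 and S513A 8 hr replicate 1 stood apart from the other libraries of their time along the main direction of replicate differences, which held 67.6% of the replicate variance. Counts with and without this pair are given with the results.

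With the deposited scaling, more chaperone genes were called higher than lower after LPS. Most of the higher ones were cytosolic, and the cytosolic genes were also the largest group, 33 of the 71 members. Each LPS contrast compared the mean of both genotypes at a time point, 4 libraries a side, with limma in 1 model of all 12 libraries, and a gene was called at a Benjamini-Hochberg adjusted p under 0.05 over 11885 genes. The test covered 70 members, since *Hspb1*, a small heat shock protein with 3 to 12 reads per library, fell below the minimum level. At 4 hr against 0 hr, 31 members were higher and 9 lower, against 29.1% of all genes higher and 26.7% lower, so the share of lower calls among the members was below that background. At 8 hr against 0 hr, 29 were higher and 7 lower (24.5% and 21.6% of all genes). Without WT 4 hr replicate 2 and S513A 8 hr replicate 1, the counts were 33 and 11 at 4 hr and 28 and 7 at 8 hr. The shares of all genes called in that fit are not given here, so these counts have no background beside them. The split depended on scaling. With quantile normalization 20 members were higher and 18 lower at 4 hr, beside 25.2% and 30.1% of all genes. At 8 hr they were 20 and 14, beside 21% and 25.9% of all genes. With library totals in place of the deposited factors the counts were 18 and 20 at 4 hr and 17 and 16 at 8 hr. Library totals shifted the median of all genes by -0.25 at 4 hr and -0.17 at 8 hr. Of all genes, 18.4% were then called higher and 41.1% lower at 4 hr, and 17.1% and 31.7% at 8 hr. Both contrasts share the 0 hr libraries, so their values are given side by side and not as independent evidence.

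Of the 32 cytosolic genes tested, 18 were higher and 4 lower at 4 hr, with a median log2 fold change of 0.38, and 18 were higher and 3 lower at 8 hr, with a median of 0.36. The medians over all genes were 0.017 and -0.00070. Of the 13 ER genes, 5 were higher and 2 lower at 4 hr (median 0.12), and 4 were higher and 1 lower at 8 hr (median -0.08). Without the pair of libraries that stood apart, the cytosolic medians were 0.42 and 0.43 and the ER medians 0.17 and -0.02. With quantile normalization 8 ER genes were lower at 4 hr and 6 at 8 hr, and with library totals 6 and 5, and the ER median at 4 hr was then below 0 under both scalings. Under those scalings the cytosolic median stayed above the ER median, at 0.19 against -0.27 and at 0.13 against -0.13 at 4 hr.

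**Figure D2:**
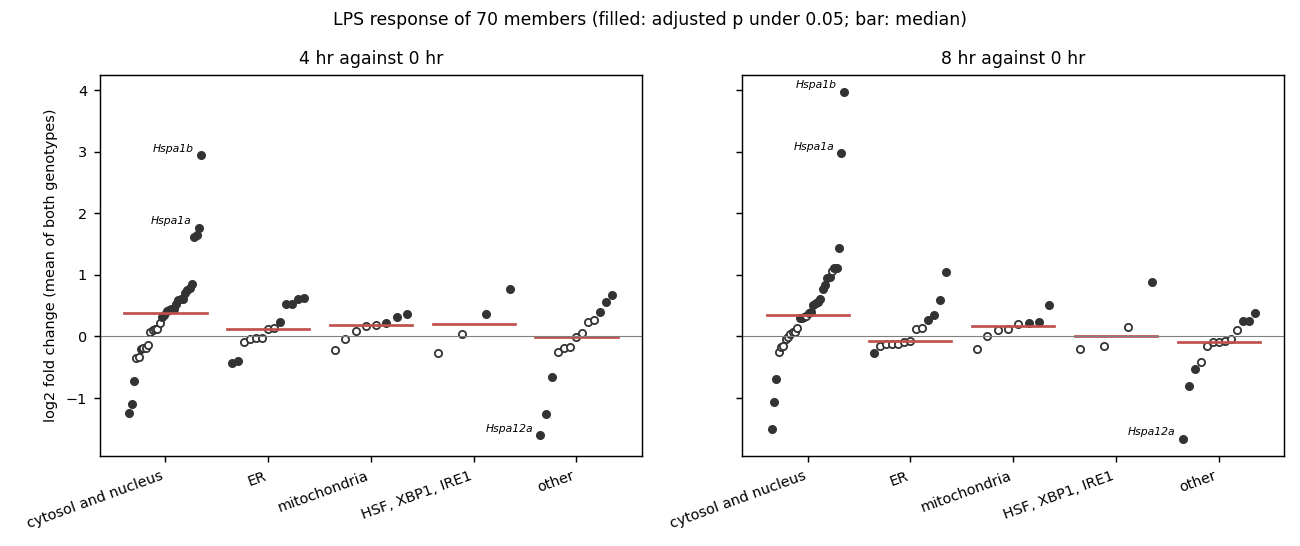
Log2 fold change of the 70 tested members at 4 hr and 8 hr against 0 hr (y axis, mean of both genotypes, 4 libraries a side), ordered within each compartment, with filled points for an adjusted p under 0.05 and a bar at the median. The cytosolic points reach 2.94 (4 hr) and 3.97 (8 hr) at *Hspa1b*, while the ER points stay between -0.42 and 1.04.

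The inducible HSP70 genes rose most. *Hspa1b* (chromosome 17, 34956429 to 34959238 of GRCm38, Entrez gene 15511) had log2 CPM values in WT of -0.32 and -0.45 before LPS, 2.12 and 2.85 after 4 hr, and 3.05 and 3.52 after 8 hr. In S513A PECs its values were -0.60 and -1.12 before LPS, 2.57 and 1.73 after 4 hr, and 3.63 and 3.19 after 8 hr. Every library at 4 hr lay above every library at 0 hr and below every library at 8 hr. The log2 fold change was 2.94 (SE 0.25, limma adjusted p = 2.46e-06) at 4 hr and 3.97 (SE 0.25, limma adjusted p = 2.86e-07) at 8 hr, and only 5 to 11 reads per library lay behind the 0 hr values. *Hspa1a* (chromosome 17, 34969359 to 34972156), its near-copy, had values in WT of 0.44 and 0.97 before LPS, 2.21 and 2.59 after 4 hr, and 3.44 and 3.46 after 8 hr. In S513A PECs they were 0.78 and 0.38 before LPS, 2.53 and 2.30 after 4 hr, and 4.03 and 3.54 after 8 hr, again with no overlap between the times. The log2 fold change was 1.76 (SE 0.18, limma adjusted p = 1.13e-05) at 4 hr and 2.98 (SE 0.18, limma adjusted p = 2.25e-07) at 8 hr. *Hspa1l*, a neighbouring gene of the same family expressed mainly in testis, was also higher, by 1.65 (SE 0.18, limma adjusted p = 1.94e-05) and 1.44 (SE 0.18, limma adjusted p = 7.52e-05). From 4 to 8 hr, *Hspa1a* rose further by 1.21 (SE 0.18, limma adjusted p = 0.000835) and *Hspa1b* by 1.03 (SE 0.25, limma adjusted p = 0.0122), while *Hspa1l* differed by -0.21 (limma adjusted p = 0.434). The further rise of *Hspa1b* lost its call without WT 8 hr replicate 2 (log2 fold change 0.91, limma adjusted p = 0.0571).

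The abundant constitutive chaperones rose less in fold but by more transcripts. Per kilobase of transcript, the level of *Hspa8* (HSC70, the constitutive HSP70) was 391 CPM per kb before LPS, 601 after 4 hr and 841 after 8 hr. That of *Hsp90ab1*, the constitutive HSP90, was 374.7, then 504.5 and then 669.3. At 8 hr *Hspa1a* and *Hspa1b* stood at 4.2 and 3.69 CPM per kb. On the log2 CPM scale, *Hspa8* (chromosome 9, 40801276 to 40805202) was at 9.58 and 9.67 before LPS, 10.46 and 10.05 after 4 hr, and 10.77 and 10.98 after 8 hr in WT and at 9.81 and 9.93 before LPS, 10.40 and 10.54 after 4 hr, and 10.73 and 10.93 after 8 hr in S513A PECs. The times did not overlap, and the log2 fold changes were 0.62 (SE 0.11, limma adjusted p = 0.00064) at 4 hr and 1.11 (SE 0.11, limma adjusted p = 1.04e-05) at 8 hr. The inducible HSP90 gene *Hsp90aa1* rose by 0.86 (SE 0.12, limma adjusted p = 8.81e-05) and 1.11 (SE 0.12, limma adjusted p = 1.61e-05). For *Hsp90ab1* the changes were 0.43 (SE 0.08, limma adjusted p = 0.000783) and 0.84 (SE 0.08, limma adjusted p = 6.78e-06). With quantile normalization *Hspa8* lost its call at 4 hr (0.18, limma adjusted p = 0.149), and *Hsp90ab1* did so with that and with library totals (0.02 and 0.17), whereas their calls at 8 hr held under median-ratio, quantile and library-total scaling. From 4 to 8 hr, *Hspa8* rose by 0.49 (SE 0.11, limma adjusted p = 0.00759) and *Hsp90ab1* by 0.41 (SE 0.08, limma adjusted p = 0.00345), and *Hsp90aa1* differed by 0.25 (limma adjusted p = 0.139), a difference that was called with quantile normalization (0.38) and with library totals (0.34).

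The nucleotide exchange factors of HSP70 did not move together. *Hsph1* (HSP110) had values in WT of 5.92 and 6.00 before LPS, 5.89 and 5.81 after 4 hr, and 6.87 and 7.00 after 8 hr. In S513A PECs the values were 6.01 and 6.09 before LPS, 5.69 and 5.79 after 4 hr, and 7.08 and 6.96 after 8 hr. All 4 libraries at 4 hr lay below the 0 hr libraries, and all 4 at 8 hr lay above both. The log2 fold change was -0.21 (SE 0.07, limma adjusted p = 0.0278) at 4 hr, 0.97 (SE 0.07, limma adjusted p = 1.03e-06) at 8 hr and 1.18 (SE 0.07, limma adjusted p = 5.76e-06) from 4 to 8 hr. The small fall at 4 hr lost its call without WT 0 hr replicate 1, WT 0 hr replicate 2, S513A 4 hr replicate 1 or S513A 0 hr replicate 2 (adjusted p 0.0505 to 0.0953). Its relatives *Hspa4* and *Hspa4l* rose by 0.34 (SE 0.07, limma adjusted p = 0.00138) and 0.70 (SE 0.08, limma adjusted p = 1.74e-05) at 4 hr. At 8 hr they stood 0.30 (SE 0.07, limma adjusted p = 0.00398) and 0.38 (SE 0.08, limma adjusted p = 0.00202) above 0 hr, and *Hspa4l* had fallen from 4 hr by 0.32. The rise of *Hspa4* was not called with quantile normalization, where it turned to -0.04 at 4 hr, nor with library totals (0.09), and the call of *Hspa4l* at 8 hr and from 4 to 8 hr ended with library totals.

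Of 18 cytosolic DnaJ genes, whose products bring clients to HSP70, 11 were higher at 4 hr, at 8 hr or at both, where 33% of all genes were higher at 1 or both of these times. *Dnaja2* peaked at 4 hr, with values in WT of 6.99 and 6.94 before LPS, 7.81 and 7.58 after 4 hr, and 7.29 and 7.45 after 8 hr. In S513A PECs the values were 7.13 and 7.16 before LPS, 7.89 and 7.99 after 4 hr, and 7.30 and 7.49 after 8 hr. The 4 hr libraries lay above all others. The changes were 0.76 (SE 0.08, limma adjusted p = 1.63e-05) at 4 hr and -0.44 (SE 0.08, limma adjusted p = 0.00314) from 4 to 8 hr. *Dnajb5* changed by 0.45 at 4 hr and -0.39 from 4 to 8 hr, though both calls ended with library totals, and the later one also without WT 8 hr replicate 1, S513A 4 hr replicate 1 or S513A 8 hr replicate 2 (adjusted p 0.0544 to 0.0801). *Dnaja1* and *Dnajb1* instead were higher at 8 hr, by 0.95 (SE 0.12, limma adjusted p = 9.05e-05) and 0.61 (SE 0.11, limma adjusted p = 0.00109). At 4 hr *Dnaja1* had risen by 0.53 (limma adjusted p = 0.00396, not called with quantile normalization) and *Dnajb1* differed by 0.22 (limma adjusted p = 0.121). *Dnajb6*, a suppressor of protein aggregation, rose by 0.60 (SE 0.09, limma adjusted p = 0.000246) and 0.52 (SE 0.09, limma adjusted p = 0.000887), and *Dnajb4* by 0.44 (SE 0.12, limma adjusted p = 0.00737) and 0.39 (SE 0.12, limma adjusted p = 0.0178). The rise of *Dnajb4* was not called with library totals at either time (0.19 and 0.23), and at 8 hr the call was also lost without any 1 of 5 libraries (adjusted p 0.0505 to 0.0767). *Dnajb2*, which sorts ubiquitinated proteins to the proteasome, rose by 0.42 (SE 0.10, limma adjusted p = 0.00367) and 0.77 (SE 0.10, limma adjusted p = 7.02e-05), the first not called with library totals (0.16). The ribosome-associated *Dnajc2* rose by 0.61 (SE 0.12, limma adjusted p = 0.00125) and 0.57 (SE 0.12, limma adjusted p = 0.00254), and *Dnajc7*, which binds HSP70 and HSP90, by 0.32 and 0.30, with neither call kept under quantile normalization or library totals. *Dnajb3* had 1.61 (SE 0.59, limma adjusted p = 0.0385) at 4 hr from very few reads, and its reads may come in part from the Ugt1a genes it overlaps. The 9 cytosolic members not called at either time were *Dnaja4*, *Dnajc8*, *Dnajc17*, *Dnajc24*, *Hspa2*, *Hspa14*, *Hspb6*, *Hspb7* and *Hspb11*. Among them *Dnaja4*, which has an HSE match, was low at 0.32 to 1.26 log2 CPM. *Dnajc21*, a factor of ribosome assembly, rose by 0.79 (SE 0.10, limma adjusted p = 7.53e-05) at 4 hr and 0.54 (SE 0.10, limma adjusted p = 0.00144) at 8 hr.

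Apart from *Hsph1*, which was lower at 4 hr but higher at 8 hr, 3 cytosolic genes fell, each at both 4 hr and 8 hr. *Dnajc9*, a histone chaperone expressed in dividing cells, fell by 1.09 (SE 0.14, limma adjusted p = 5.09e-05) and 1.06 (SE 0.14, limma adjusted p = 8.53e-05). In WT its values were 3.93 and 3.71 before LPS, 2.82 and 2.43 after 4 hr, and 3.17 and 3.17 after 8 hr, and in S513A PECs 3.79 and 3.97 before LPS, 3.06 and 2.71 after 4 hr, and 2.26 and 2.56 after 8 hr. The 0 hr libraries lay above all others. *Dnajb13*, a gene of cilia and sperm tails at 46 to 57 reads per library at 0 hr, changed by -1.24 (SE 0.20, limma adjusted p = 0.000378) and -1.50 (SE 0.20, limma adjusted p = 0.00012). *Dnajc12*, which helps fold aromatic amino acid hydroxylases, changed by -0.73 (SE 0.24, limma adjusted p = 0.0244) and -0.69 (SE 0.24, limma adjusted p = 0.0377), and its calls ended when each of 5 libraries (4 hr) or 7 libraries (8 hr) was left out in turn. Of the 13 genes of the remaining group, 3 fell and 3 rose at both times. *Dnajb14*, an ER membrane DnaJ protein, fell by 0.67 (SE 0.10, limma adjusted p = 0.00016) and 0.52 (SE 0.10, limma adjusted p = 0.00115). *Dnajc28* changed by -1.26 (SE 0.19, limma adjusted p = 0.000211) and -0.81 (SE 0.19, limma adjusted p = 0.00529). *Hspa12a*, a distant HSP70 relative with 1 to 7 reads per library after LPS, changed by -1.60 (SE 0.60, limma adjusted p = 0.0425) and -1.66 (SE 0.60, limma adjusted p = 0.043), with calls lost in 10 and 9 of 25 alternatives. The risers were *Dnajb12*, another ER membrane DnaJ protein (0.40 and 0.25), *Dnajc25* (0.67 and 0.39) and the endosomal *Dnajc13* (0.56 and 0.25). With library totals *Dnajb12* was called at neither time, and *Dnajc25* and *Dnajc13* were called at 4 hr only. With quantile normalization *Dnajc13* was called at neither time and stood at -0.02 at 8 hr.

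The ER genes divided into those that rose, those that fell and a group, mostly of abundant genes, that was not called. *Hspa5* (BiP, the ER HSP70, chromosome 2, 34772090 to 34776529) had a transient rise, with values in WT of 9.95 and 9.86 before LPS, 10.57 and 10.25 after 4 hr, and 10.02 and 10.13 after 8 hr. In S513A PECs the values were 10.02 and 10.01 before LPS, 10.51 and 10.61 after 4 hr, and 9.98 and 10.20 after 8 hr. The 4 hr libraries lay above the other 8. The log2 fold change was 0.53 (SE 0.10, limma adjusted p = 0.000744) at 4 hr and -0.41 (SE 0.10, limma adjusted p = 0.0103) from 4 to 8 hr, and at 8 hr the difference from 0 hr was 0.12 (limma adjusted p = 0.33). With quantile normalization the rise at 4 hr was 0.09 (limma adjusted p = 0.428), and the later fall ended at an adjusted p of 0.0502 without WT 8 hr replicate 1. *Dnajc10* (ERdj5), a disulfide reductase that works with BiP in ER-associated degradation, rose stepwise instead, with values in WT of 6.81 and 6.69 before LPS, 7.35 and 7.33 after 4 hr, and 7.81 and 7.83 after 8 hr. In S513A PECs they were 6.73 and 6.83 before LPS, 7.37 and 7.45 after 4 hr, and 7.76 and 7.82 after 8 hr. No time overlapped another, and the changes were 0.61 (SE 0.07, limma adjusted p = 1.7e-05) at 4 hr, 1.04 (SE 0.07, limma adjusted p = 3.23e-07) at 8 hr and 0.43 (SE 0.07, limma adjusted p = 0.00105) from 4 to 8 hr. These calls held in each of the 26 alternatives.

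*Hspa13*, a microsomal HSP70 relative, rose by 0.54 (SE 0.07, limma adjusted p = 8.62e-05) and 0.35 (SE 0.07, limma adjusted p = 0.00204), and the BiP co-chaperone *Dnajc1* by 0.62 (SE 0.07, limma adjusted p = 1.57e-05) and 0.60 (SE 0.07, limma adjusted p = 2.69e-05). *Dnajb11* (ERdj3), another BiP partner, had 0.23 (SE 0.07, limma adjusted p = 0.0189) and 0.27 (SE 0.07, limma adjusted p = 0.0102), but at 4 hr turned to -0.12 with quantile normalization and -0.02 with library totals, and the call at 8 hr ended under both (0.01 and 0.11). The call at 4 hr also ended without WT 0 hr replicate 2, S513A 0 hr replicate 1 or S513A 4 hr replicate 2 (adjusted p 0.0554 to 0.0634). That of *Hspa13* at 8 hr ended with library totals (0.19). *Pdia4* (ERp72, a disulfide isomerase) fell at 4 hr, with values in WT of 6.95 and 6.99 before LPS, 6.80 and 6.40 after 4 hr, and 6.98 and 6.99 after 8 hr and in S513A PECs of 7.01 and 7.08 before LPS, 6.55 and 6.58 after 4 hr, and 6.74 and 6.83 after 8 hr. The 4 hr libraries lay below all 0 hr libraries and partly overlapped the 8 hr libraries. The changes were -0.42 (SE 0.09, limma adjusted p = 0.00195) at 4 hr and 0.30 (SE 0.09, limma adjusted p = 0.0287) from 4 to 8 hr, the latter lost without any 1 of 5 libraries (adjusted p 0.0647 to 0.0852). *Dnajb9* (ERdj4), an inhibitor of IRE1 and a classical XBP1 target, fell by 0.40 (SE 0.12, limma adjusted p = 0.0177) at 4 hr and was not called at 8 hr (-0.12). That fall lost its call without WT 4 hr replicate 2 (-0.30, limma adjusted p = 0.0545) and without WT 0 hr replicate 1, S513A 4 hr replicate 1 or S513A 0 hr replicate 2. *Pdia3* (ERp57), the isomerase of the calnexin cycle, differed by -0.27 (SE 0.08, limma adjusted p = 0.0198) at 8 hr, a call lost without any 1 of 5 libraries (adjusted p 0.057 to 0.0714).

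The remaining 5 ER genes were called at neither time in the mean of both genotypes with the deposited scaling. *Hsp90b1* (GRP94) had values in WT of 9.84 and 9.96 before LPS, 10.12 and 9.65 after 4 hr, and 9.93 and 9.98 after 8 hr. In S513A PECs they were 10.02 and 10.15 before LPS, 9.97 and 10.15 after 4 hr, and 9.75 and 9.91 after 8 hr. *Calr* (calreticulin) ranged from 9.55 to 9.80 in all 12 libraries. The 3 times overlapped for both genes. The 95% confidence interval of the change at 4 hr was -0.26 to 0.22 for *Hsp90b1* and -0.19 to 0.15 for *Calr*, and at 8 hr -0.34 to 0.15 and -0.25 to 0.10. Intervals at 4 hr were -0.02 to 0.29 for *Canx* (calnexin), -0.13 to 0.38 for *Pdia6* and -0.19 to 0.11 for *Dnajc3*, the ER-lumenal P58IPK. These bounds are relative to the deposited scaling. With library totals, *Hsp90b1* and *Calr* were called lower at 4 hr (-0.28 and -0.27), and with quantile normalization likewise (-0.45 and -0.45).

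The 6 genes with an ERSE match (*Hspa5*, *Hsp90b1*, *Calr*, *Canx*, *Pdia6* and *Dnajc3*) included 1 called at 4 hr, *Hspa5*, and 0 at 8 hr, when 0 had an unadjusted p under 0.05 and 0 were called with voom weights. Of the 6 ER genes with an entry and no match, 3 were higher and 2 lower at 4 hr, and 3 were higher and 1 lower at 8 hr. Among the 9 cytosolic genes with a 2-unit HSE, 5 were higher and 1 lower at 4 hr and 6 were higher at 8 hr, 1 of the 9 (*Hspb1*) being untested. Among the 19 without it, 9 were higher and 2 lower at 4 hr and 8 higher and 2 lower at 8 hr. Of all genes, 29.1% were higher and 26.7% lower at 4 hr, and 24.5% and 21.6% at 8 hr. All of these counts use the deposited scaling. At 4 hr *Hspa5* was not called with quantile normalization, and *Hsp90b1* and *Calr* were called lower with that and with library totals. Among the ER genes without a match, *Dnajb11* turned direction at 4 hr under both. The counts by motif are of few genes, and no difference between them, or from these shares, was tested.

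**Figure D3:**
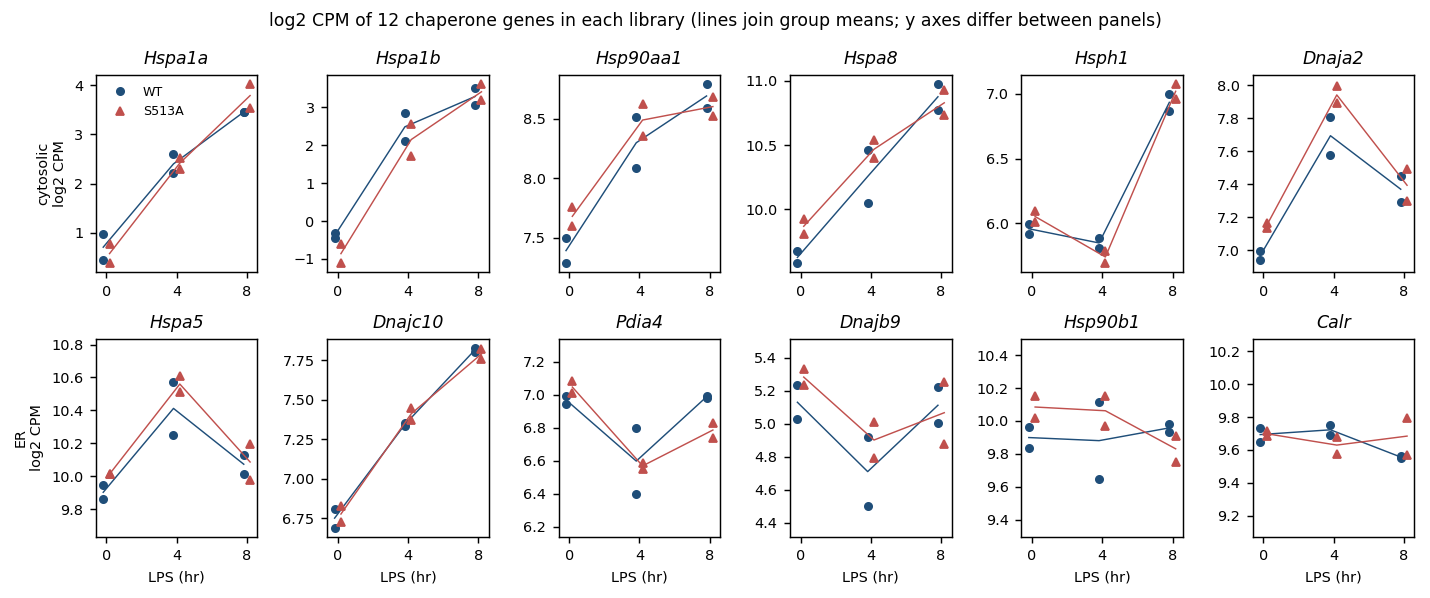
Log2 CPM (y axis, scales differ between panels) of 6 cytosolic genes (top row) and 6 ER genes (bottom row) at 0, 4 and 8 hr of LPS, with 1 point per library (circles WT, triangles S513A) and lines through the group means of 2 libraries. *Hspa1a*, *Hspa1b*, *Hspa8* and *Dnajc10* rise at each step, *Dnaja2* and *Hspa5* peak at 4 hr, *Hsph1* rises only after 4 hr, and *Calr* stays within 9.55 to 9.80.

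Summed over the members of a compartment, cytosolic chaperone transcripts gained on ER chaperone transcripts at each step of stimulation. The summed level of the 33 cytosolic genes was 1299 ± 92.9 CPM per kb (SD, n = 4 libraries) before LPS, 1820 ± 162 after 4 hr and 2253 ± 98.3 after 8 hr. For the 13 ER genes the sums were 1873 ± 78.0, 2042 ± 157 and 1859 ± 57.9. The cytosolic sums of the 3 times did not overlap, and the ER sums did. The ratio of cytosolic to ER sum is unaffected by any factor that scales a whole library. In the WT libraries it was 0.67 and 0.68 before LPS, then 0.88 and 0.87 after 4 hr, and finally 1.17 and 1.24. In S513A PECs it was 0.70 and 0.72, 0.89 and 0.91, and 1.22 in both libraries. Thus the sum of the 13 ER members exceeded that of the 33 cytosolic members in every library at 0 and 4 hr, and the reverse held at 8 hr. Which sum is larger depends on the genes chosen and on the transcript length used for each. Other folding genes, such as those of CCT and prefoldin, were left out. *Hspa8* and *Hsp90ab1* alone made up much of the cytosolic sum, at 841 and 669 of 2253 CPM per kb at 8 hr.

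**Figure D4:**
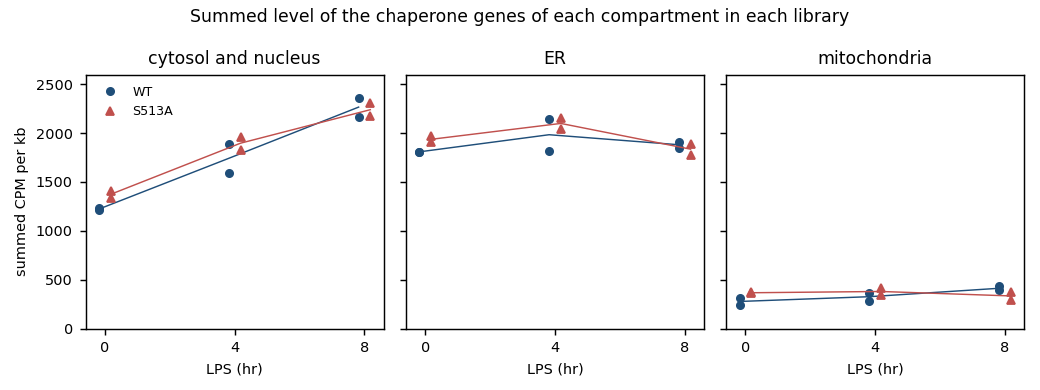
Summed CPM per kb of transcript (y axis) of the cytosolic, ER and mitochondrial members in each library at 0, 4 and 8 hr of LPS (x axis), circles for WT and triangles for S513A, with lines through the means of 2 libraries. The cytosolic sum climbs from 1299 to 2253 on average while the ER sum is 1873 at 0 hr and 1859 at 8 hr.

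Among the 8 mitochondrial genes, 3 were higher at 4 hr and 3 at 8 hr, and 0 were lower at either time, where 0 of the falls had an unadjusted p under 0.05. With 29.1% and 24.5% of all genes higher at these times, 3 of 8 is near the background. *Hspa9* (mortalin, the mitochondrial HSP70) rose by 0.31 (SE 0.07, limma adjusted p = 0.00327) and 0.21 (SE 0.07, limma adjusted p = 0.0325), but turned to -0.07 and -0.06 with quantile normalization. Neither call was kept with library totals (0.06 and 0.05), and that at 8 hr was lost without any 1 of 6 libraries (adjusted p 0.0684 to 0.122). The chaperonin subunit *Hspd1* (HSP60) was higher at 8 hr by 0.52 (SE 0.10, limma adjusted p = 0.00184), a call that ended with quantile normalization (0.26, limma adjusted p = 0.052), and from 4 to 8 hr by 0.32, a call that ended in 14 of 26 alternatives. Its partner *Hspe1* (HSP10) was not called, with a standard error of 0.23 in each LPS contrast. The co-chaperones *Dnaja3* and *Dnajc11* rose at 4 hr by 0.23 and 0.36, but neither was called with quantile normalization (0.11 and 0.20) or library totals, where *Dnaja3* turned to -0.03. At 8 hr *Dnaja3* was higher by 0.24 (limma adjusted p = 0.0212), a call that also ended under both (0.15 and 0.08).

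Of the regulators, *Hsf2* was higher at both times and *Hsf1* at 4 hr. *Hsf2* had values in WT of 3.89 and 3.99 before LPS, 4.71 and 4.89 after 4 hr, and 4.87 and 4.73 after 8 hr and in S513A PECs of 4.21 and 3.99 before LPS, 4.77 and 4.83 after 4 hr, and 5.12 and 4.92 after 8 hr. The 0 hr libraries lay below all others. Its changes were 0.78 (SE 0.09, limma adjusted p = 3.56e-05) and 0.89 (SE 0.09, limma adjusted p = 1.7e-05). For *Hsf1* the change was 0.37 (SE 0.11, limma adjusted p = 0.0133) at 4 hr, lost with library totals (0.12) and without WT 0 hr replicate 2, S513A 4 hr replicate 1 or S513A 0 hr replicate 2 (adjusted p 0.0537 to 0.0582), and 0.15 at 8 hr (limma adjusted p = 0.287). *Xbp1* and *Ern1* were not called, with changes at 4 hr of 0.04 (limma adjusted p = 0.803) and -0.27 (limma adjusted p = 0.181). These are totals over all transcripts of *Xbp1*, since spliced and unspliced forms are not separate in gene counts.

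Partner genes outside the family gave a mixed picture at 4 hr, when 29.1% of all genes were higher and 26.7% lower (18.4% and 41.1% with library totals, 25.2% and 30.1% with quantile normalization). Of 14 genes of the cytosolic chaperonin CCT and prefoldin, 10 were higher and 0 lower (median 0.52), with 0.85 (SE 0.10, limma adjusted p = 3.05e-05) for *Cct3*, 0.72 (SE 0.23, limma adjusted p = 0.0202) for *Pfdn4* and 0.69 (SE 0.10, limma adjusted p = 0.000121) for *Cct6a*, and with library totals 6 were higher and 0 lower. No reduction was called in this list under median-ratio, quantile or library-total scaling at 4 hr. Of 23 co-chaperones, 8 were higher (34.8%) and 4 lower (17.4%), the former near the share of all genes. *Stip1* (HOP), which hands clients from HSP70 to HSP90, rose by 1.56 (SE 0.08, limma adjusted p = 5.48e-08), and *Fkbp5*, an HSP90 cofactor and glucocorticoid target, by 1.85 (SE 0.13, limma adjusted p = 6.47e-07). The HSP90 cofactor *Ptges3* (p23) rose by 0.78 (SE 0.10, limma adjusted p = 4.52e-05). With library totals the co-chaperone split was 6 higher and 7 lower. The BAG-domain exchange factors *Bag2*, *Bag4* and *Bag3* fell, *Bag2* by 1.52, *Bag4* by 0.61 and *Bag3* by 0.59 on the log2 scale (limma adjusted p = 0.00421, 0.0007 and 0.00949). Of 40 further genes of the unfolded protein response and ER folding, 12 were higher (30%, near the share of all genes) and 15 lower (37.5%), a split that became 5 and 17 with quantile normalization and 5 and 18 with library totals. *Ppp1r15a* (GADD34), which reverses the phosphorylation of eIF2alpha, rose by 1.66 (SE 0.08, limma adjusted p = 1.98e-08), the ERAD gene *Herpud1* by 0.85 (SE 0.10, limma adjusted p = 2.22e-05) and the oxidase gene *Ero1l* by 0.69 (SE 0.07, limma adjusted p = 1.04e-05). *Crebrf*, *Erp29* and the ATF4 target *Trib3* fell by 1.39, 1.13 and 1.04 (limma adjusted p = 5.05e-07, 5.35e-06 and 0.00297). Of 10 other mitochondrial protein quality genes, 2 were higher and 2 lower.

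Between 4 and 8 hr, 11 members were higher and 5 lower, beside a background of 12.8% of all genes in each direction. With library totals the counts were 13 and 2, beside 16.7% and 8.38% of all genes. The cytosolic genes gave 8 of the rises, led by *Hspa1a*, *Hsph1* and *Hspa1b*, and 3 of the falls. The ER genes gave 2 rises, *Dnajc10* and *Pdia4*, and 1 fall, *Hspa5*. *Dnajc13*, an endosomal protein, was the lower member of the other compartments (-0.31, limma adjusted p = 0.0188). Leaving out 1 library moved these counts to 5 to 13 higher and 2 to 9 lower, with 5 higher without WT 8 hr replicate 2 and 9 lower without WT 4 hr replicate 2. The shares of all genes in these fits are not given here, so the shifts cannot be read as particular to the members.

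Within each genotype the LPS contrasts had 2 libraries a side. At 4 hr, 24 members were higher and 7 lower in WT (22.6% and 18.7% of all genes) and 25 higher and 7 lower in S513A PECs (23.1% and 20.2%). At 8 hr, 23 were higher and 4 lower in WT (19.4% and 14.9%) and 19 higher and 7 lower in S513A PECs (20.9% and 19%). From 4 to 8 hr, 5 were higher and 1 lower in WT (6.73% and 7.49%) and 5 higher and 4 lower in S513A PECs (9.31% and 8.99%). Leaving out 1 library moved the higher counts to 15 to 29 at 4 hr in S513A, 15 to 28 at 8 hr in WT and 12 to 23 at 8 hr in S513A PECs, the lowest being without replicate 1 of 0 hr of the same genotype. These ranges too are given without the shares of all genes in the same fits, so they describe the fits and not the members alone.

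The genotypes were compared directly to ask whether the S513A allele changed chaperone expression. Of the 70 members, 0 were called between S513A and WT at 0, 4 or 8 hr or in the mean of the 3 time points by limma, and 0 with voom weights on the reads. Over all genes the called shares were 0.0337%, 0.0168%, 0.0337% and 0.0673%. At an unadjusted p under 0.05 there were 5, 2, 4 and 2 members, where all genes gave 949, 833, 1487 and 798. With only the 4 libraries of 0 hr in the model, 2 members were called. The share of all genes called in that model is not given here, so this count has no background beside it. In the mean of the time points, the 95% confidence interval of S513A against WT was -0.06 to 0.33 for *Hspa8*, -0.08 to 0.34 for *Hsp90aa1*, -0.11 to 0.15 for *Hsph1*, -0.08 to 0.26 for *Hspa5* and -0.12 to 0.28 for *Hsp90b1*. Those of the low inducible genes were wider, -0.26 to 0.40 for *Hspa1a* and -0.68 to 0.22 for *Hspa1b*. Differences of any size within these bounds remain compatible with the values of these 6 libraries a side. The 2 members at an unadjusted p under 0.05 in that mean were *Dnaja2* (interval 0.0024 to 0.30, limma adjusted p = 0.742) and *Hspa4l* (interval 0.0092 to 0.29, limma adjusted p = 0.716).

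**Figure D5:**
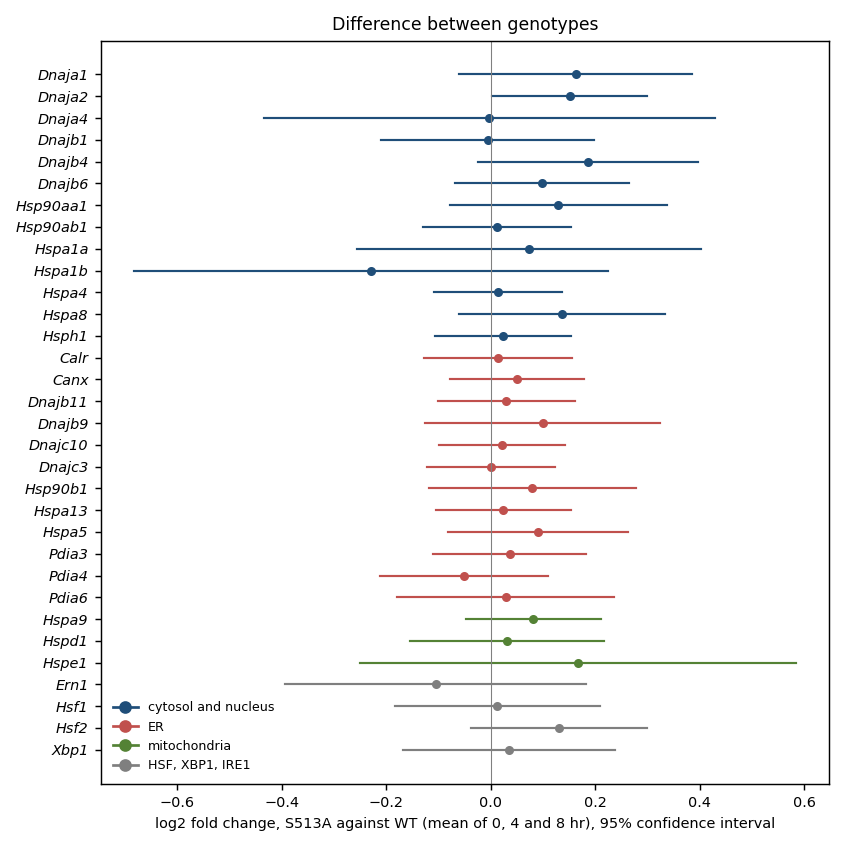
Log2 fold change of S513A against WT averaged over 0, 4 and 8 hr (x axis, points) with the 95% confidence interval (bars) for the 32 tested genes among the main chaperones of each compartment, coloured by compartment. All drawn intervals include 0 apart from that of *Dnaja2*, which starts just above it, and that of *Hspa1b* is the widest drawn.

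The LPS responses of the genotypes did not differ at an adjusted p under 0.05 for any member. The interaction called 0 of 11885 genes at 4 hr and 0 at 8 hr by limma (0%), with 3 and 9 members at an unadjusted p under 0.05, where all genes gave 144 and 2405 (1.21% and 20.2%), and 0 members with voom weights. The members with the smallest interaction p at 8 hr were *Dnajc19-ps*, *Hspe1*, *Dnajc15* and *Dnajc19*, at -2.08, -1.51, -1.19 and -1.29 (limma adjusted p = 0.193, 0.193, 0.196 and 0.197). *Hspe1* had values in WT of 5.73 and 6.42 before LPS, 6.51 and 5.88 after 4 hr, and 6.82 and 7.05 after 8 hr. In S513A PECs they were 6.95 and 6.75 before LPS, 6.33 and 6.98 after 4 hr, and 5.78 and 6.62 after 8 hr. The lowest values at 4 and 8 hr were those of WT 4 hr replicate 2 and S513A 8 hr replicate 1, the pair that stood apart, and *Hspe1*, *Dnajc12*, *Dnajc19* and *Dnajc15* carried the largest weights among the members on that direction of replicate differences. Without that pair 0 members were called in the interaction at 8 hr, and without S513A 8 hr replicate 2 there were 4. The shares of all genes called in these fits are not given here, so the 4 cannot be read as particular to the members. Whether the quality of those libraries took part was not tested.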

How the data were processed

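RNA-seq was available for 12 libraries of PECs in 6 groups (WT and S513A, each at 0, 4 and 8 hr of LPS). Per the submitters' processing notes, HISAT2, featureCounts 1.6.3 and the mm10 genome were used. The authors deposited 1 table of log2 CPM values, and its values are whole reads plus 0.5 over a scaled library size, with 100% of recovered reads within 0.01 of a whole number. The reads were mapped as unstranded, and no strand setting of the counting is given in the sources used here, so overlapping genes (Hspd1 with Hspe1, and Hspa5, Pdia3, Hspa8 and Dnajc1 with others) may share reads.

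Genes at 1 CPM or more in at least 2 libraries (11885 of 12850) were tested with limma 3.58.1 in R 4.3.3, with 1 mean per group, a trended prior and Benjamini-Hochberg adjustment at 0.05. LPS contrasts averaged both genotypes, and contrasts within genotype, between genotypes and their interaction came from the same model with 6 residual degrees of freedom. The steps were tested on simulated data. Depth was 9525979 to 12439960 reads, so 3 reads lie at -2.04 to -1.30 log2 CPM. That floor covers counting error only. Levels per kb used the median transcript length per gene of a GRCm38 annotation, and motifs were searched with Python 3.11.15 and pandas 2.3.3 in RefSeq promoters of GRCm38.p6. Figures were drawn with matplotlib 3.10.9.

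The members and lists were chosen with earlier results of these data known. Named genes were the main chaperones of each compartment, in each LPS contrast the 5 members with the largest called rise and the 5 with the largest called fall whose libraries did not overlap, and the 3 largest of each direction in the co-chaperone, chaperonin and unfolded protein response lists. The other members, named to account for all of them, among them Dnajc13, were named outside this rule after their values were seen. The 26 alternatives changed the filter, a further 1 CPM added before the log, the scaling, the prior, a replicate block, voom weights, the libraries in the model and 1 library at a time. The removal of the 2 libraries standing apart, the removal of a length trend and the library-total scaling were chosen after seeing the data.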

Additional observations from a re-analysis of the deposited data

How the results depend on the processing

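With 2 libraries a group, calls near the threshold and those at few reads (*Dnajb3*, *Hspa12a*) are the least certain. *Hspa1b* also had few reads at 0 hr (5 to 11 per library). Its calls against 0 hr held in all 26 alternatives, but its log2 fold change at 4 hr ranged from 1.86 to 3.15 among them. Of 70 called results for named members, 37 kept their call in all alternatives that gave a value and 33 lost it in at least 1, and of 53 uncalled results 22 gained a call in at least 1. Except where an alternative used fewer genes or libraries, the cause was not tested. Counts of members are given as higher and lower, without the share of all genes under the same setting, so they describe the settings and not the members alone. With quantile normalization they were 20 and 18 at 4 hr (ER 3 and 8), 20 and 14 at 8 hr (ER lower 6), 15 and 15 for WT and 12 lower for S513A at 4 hr, and 8 and 11 lower for WT and S513A at 8 hr. The median was 0.19 for cytosolic and -0.27 for ER genes at 4 hr, and for ER genes -0.21 at 8 hr and 0.028 from 4 to 8 hr. With library totals the counts were 18 and 20 at 4 hr (cytosolic higher 11, ER lower 6), 17 and 16 at 8 hr (ER 2 and 5) and 2 lower from 4 to 8 hr (cytosolic 1). By genotype they were 12 and 14 (WT) and 15 and 13 (S513A) at 4 hr, 10 and 12 lower at 8 hr, and 8 and 2 for S513A from 4 to 8 hr. The medians were 0.13 and -0.13 (cytosolic and ER) at 4 hr, 0.19 and -0.24 at 8 hr, and 0.033 for ER genes from 4 to 8 hr. Direction turned with quantile normalization for *Hspa4* (-0.037), *Dnajb11* (-0.12) and *Hspa9* (-0.073 at 4 hr, -0.061 at 8 hr) and *Dnajc13* (-0.02 at 8 hr), and with library totals for *Dnajb11* (-0.022) and *Dnaja3* (-0.03 at 4 hr). A filter at a mean of 5 CPM, which removes low genes, left 4 lower at 8 hr, 4 (WT) and 4 (S513A) at 4 hr, 2 and 4 at 8 hr. With only the libraries compared, 7 were higher from 4 to 8 hr (ER 1), 4 lower in WT at 4 hr, 11 lower in S513A at 8 hr, 3 and 0 in WT and 2 higher in S513A from 4 to 8 hr, and 2 differed between genotypes at 0 hr. A prior without a trend left 1 ER gene higher from 4 to 8 hr. Without the pair standing apart, 2 ER genes were lower from 4 to 8 hr, 4 lower in WT at 4 hr, 3 and 3 in WT and 2 lower in S513A from 4 to 8 hr. Removal of a length trend gave 9 lower from 4 to 8 hr (ER 2), 9 and 2 in WT and 9 lower in S513A. Deviations of same-numbered libraries correlated at -0.75 to 0.76, with 6 of 15 group pairs over 0.1, but these include pairs across genotypes. Within WT the correlations were -0.21, 0.15 and -0.36, and within S513A -0.03, -0.12 and 0.76 (4 hr with 8 hr). Whether same-numbered libraries of a genotype share a mouse or culture cannot be decided from these values, and the main model did not pair them. A replicate block left 4 lower in WT at 4 hr.

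Leaving out 1 library at a time gave 5 to 10 lower at 4 hr (cytosolic 2 to 4, ER 1 to 2), 4 to 8 lower at 8 hr (ER 0 to 1), and 5 to 13 higher and 2 to 9 lower from 4 to 8 hr (cytosolic higher 4 to 9, ER 1 to 3 higher and 0 to 3 lower). In WT 16 to 26 were higher and 2 to 6 lower at 4 hr, 15 to 28 and 1 to 5 at 8 hr, and 1 to 11 and 0 to 1 from 4 to 8 hr. In S513A 15 to 29 were higher and 4 to 8 lower at 4 hr, 12 to 23 and 3 to 11 at 8 hr, and 1 to 6 and 0 to 8 from 4 to 8 hr. The interaction at 8 hr called 0 to 4. The median of ER genes at 4 hr was 0.011 to 0.17 and that of cytosolic genes from 4 to 8 hr -0.065 to 0.11.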
